A study of Mus musculus with 8 samples.

Results

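The core circadian clock is described here by 10 genes, chosen by name: the activators Arntl, Clock and Npas2, the repressors Per1, Per2, Per3, Cry1, Nr1d1 and Ciart, and the output factor Dbp. They were read from every non-control probe whose gene name was 1 of the 10, which gave 12 of the 55681 probes of the array, with 2 probes each for Per1 and Dbp and 1 for each of the others. All 10 genes were among the 25124 genes and unnamed transcripts tested. The 8 samples were total kidney RNA of CD-1 mice, a stock that is not inbred: 4 from mice given tacrolimus at 1 mg/kg/day for 28 days (TAC) and 4 from mice given physiological serum (CTL). Tacrolimus is a calcineurin inhibitor used against transplant rejection and known to harm the kidney, and the design asks which kidney transcripts differ under it. The labels give neither age nor sex of the animals, nor the hour at which the kidneys were taken, on which clock transcripts are known to depend. They number the samples without naming animals, and p-values here therefore measure only how these samples scatter, which may be technical. A TAC or CTL kidney below means 1 such sample.

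Each sample was hybridised to a 1-colour Agilent array. A level is the log2 processed signal minus that of the array's 75th percentile, and a difference is the TAC mean minus the CTL mean, in log2 units. The 8 arrays lay on 1 slide, with the TAC arrays in row 2 and the CTL arrays in row 1, so that slide row and treatment cannot be told apart. On each array 64.0% to 69.8% of spots other than controls exceeded background clearly, and no spot was saturated. With 4 arrays a group, their number limits the precision of every value. The RNA came from whole kidney, and all 21 listed markers of proximal tubule, loop and distal tubule, collecting duct and podocytes passed the filter on dim probes. In such bulk RNA, fewer cells of a type and less RNA per cell cannot be told apart.

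The clock is a loop of transcription and repression found in most cells of the body. ARNTL (also called BMAL1), paired with CLOCK or NPAS2, binds E-box sequences and turns on the Per, Cry, Nr1d1, Ciart and Dbp genes. The PER and CRY proteins then block that pair, CIART does so too, and NR1D1 represses Arntl itself, while DBP passes the rhythm on through D-box sequences. In most mouse tissues the Arntl transcript therefore peaks at the opposite time of day to the transcript of Dbp. In the kidney the clock is known to shape the daily rhythm of salt and water excretion.

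The level of Arntl was lower, and those of Ciart and Dbp were higher, in TAC than in CTL kidneys at an unadjusted p under 0.05, but no clock gene was called. Arntl was 2.14-fold lower, Ciart 2.71-fold higher and Dbp 1.65-fold higher in TAC kidneys. The means of Cry1, Per2, Per1 and Per3 were above those of CTL kidneys without passing at that level either, and the differences of Clock, Npas2 and Nr1d1 were -0.12, -0.05 and -0.05. The scatter behind these values lay mainly in the CTL kidneys for Dbp, Ciart and Cry1. None of the 10 genes passed an adjusted p under 0.05 (limma, Benjamini-Hochberg over all genes tested), against 0.227% of all genes tested (0.187% higher and 0.0398% lower). The unadjusted level of 0.05 was passed by 3 of 10, against 15.5% of all genes. Of these, 2 were higher, against 7.04% of all genes, and 1 was lower, against 8.42%. The 4 TAC arrays lay entirely above or below the 4 CTL arrays in 2 of 10, where 10.1% of all genes did so. These were 1 higher gene, Ciart, and 1 lower gene, Arntl, against 4.35% and 5.76% of all genes. The median difference of the 10 genes was 0.24, beside a median of -0.05 over all genes tested. With so few genes these shares are descriptions, and the list was given no test.

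**Figure D1:**
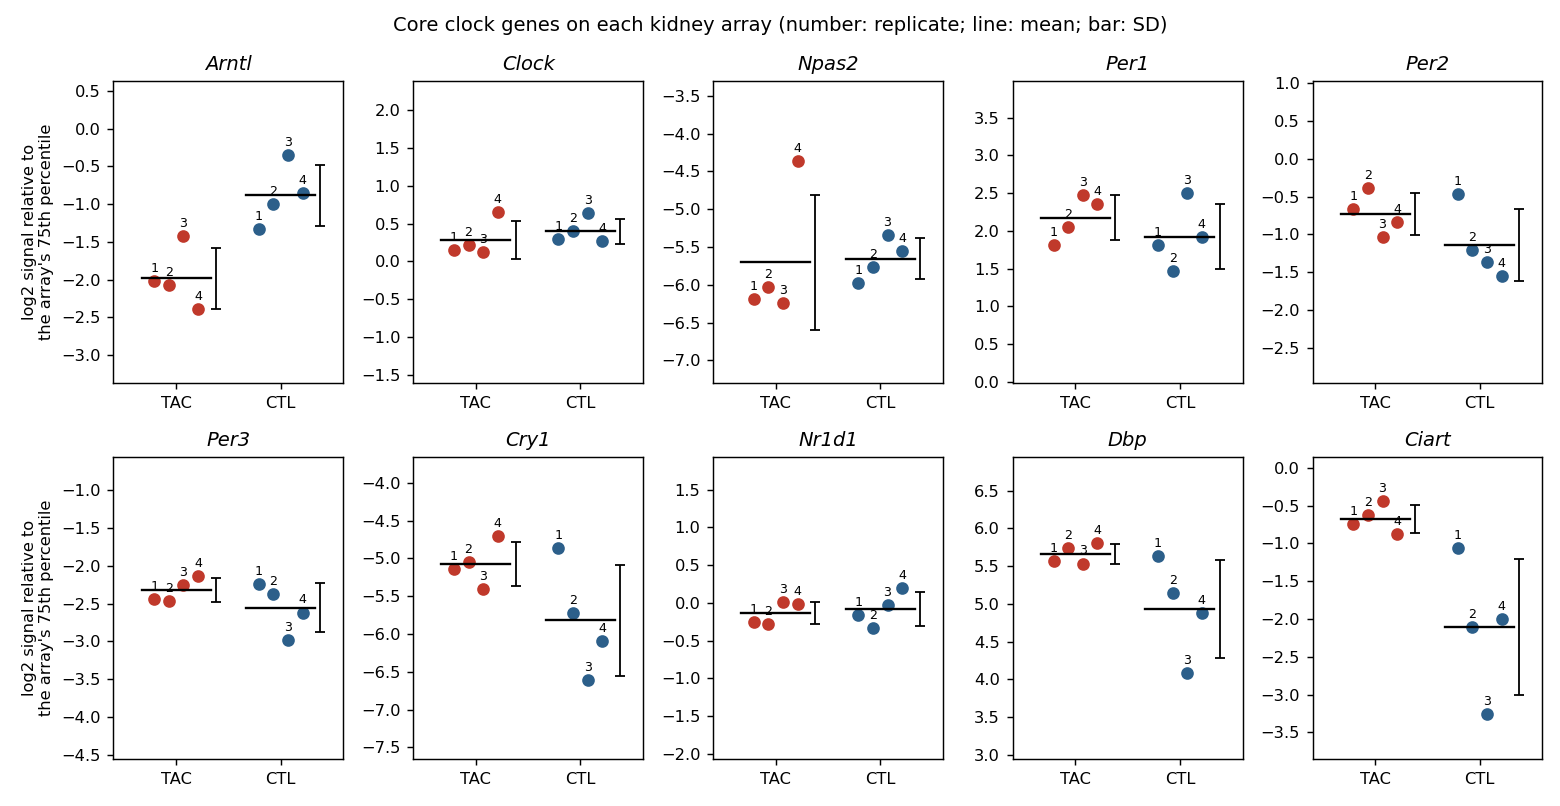
Level of each core clock gene on the 8 arrays, in log2 units relative to the 75th percentile of the array, with the 4 TAC kidneys in red and the 4 CTL kidneys in blue. Digits are replicate numbers, lines are means and bars are SDs, and each panel spans 4 log2 units. Arntl and Ciart are the 2 genes whose groups do not overlap, and the CTL points of Dbp, Ciart and Cry1 are spread more widely than their TAC points.

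Arntl encodes the activator that every form of the loop requires. Its level was -2.02, -2.08, -1.43 and -2.39 on TAC replicates 1 to 4, against -1.33, -1.004, -0.35 and -0.85 on CTL replicates 1 to 4. All TAC kidneys lay below all CTL kidneys, although TAC replicate 3 and CTL replicate 1 were only narrowly apart. The means were -1.98 ± 0.40 in TAC and -0.88 ± 0.41 in CTL kidneys (SD, n = 4 each), a difference of -1.10 ± 0.25 (SE) with a 95% confidence interval from -1.67 to -0.52. The unadjusted p was 0.00220 and the adjusted p 0.109 (limma), and the exact two-sided permutation p was 0.0286, the smallest that 4 arrays against 4 allow. Its probe lies on chromosome 7 from 120457261 to 120457320 in the mm9 positions of the array annotation; whether an exon lies there was not looked up.

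Clock and Npas2 encode the partners of ARNTL. Clock, the usual one, was at 0.14, 0.21, 0.12 and 0.65 on the TAC arrays and at 0.30, 0.40, 0.64 and 0.27 on the CTL arrays. The groups overlapped fully, with a difference of -0.12 and an interval from -0.45 to 0.21. Npas2, which can stand in for CLOCK, was dim, well above background on 2 of 4 TAC and 4 of 4 CTL arrays. It was at -6.18, -6.03, -6.24 and -4.37 on the TAC arrays, against -5.97, -5.76, -5.34 and -5.56 on the CTL arrays. TAC replicate 4 stood far above the other TAC kidneys, which all lay below every CTL kidney, and the difference over all 8 arrays was -0.05, with an interval from -0.97 to 0.87. Without TAC replicate 4 it was -0.49 (unadjusted p = 0.0158, adjusted p = 0.244, limma). TAC replicates 2 and 3, which that fit kept, were not well above background. An unadjusted p under 0.05 was reached in 1 of 8 fits with single arrays left out (limma). On TAC replicate 4 the mean level of 5 adipocyte markers was 0.52, against -3.17 to -2.23 on the other TAC arrays. That of the 5 tested urothelium markers (of 6 listed) was -1.02 there, against -5.26 to -2.29. The part of either in the Npas2 value was not tested.

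Ciart, also called Chrono, encodes a repressor that binds ARNTL and is itself switched on through E-boxes. It had the largest fitted difference of the 10 genes. Its level was -0.75, -0.62, -0.44 and -0.87 on the TAC arrays, against -1.06, -2.11, -3.26 and -2.001 on the CTL arrays. Every TAC kidney was above every CTL kidney, with CTL replicate 1 closest to the TAC group and CTL replicate 3 far below all others. The means were -0.67 ± 0.18 in TAC and -2.11 ± 0.90 in CTL kidneys (SD, n = 4 each), a difference of 1.44 ± 0.40 (SE) with an interval from 0.53 to 2.34. The unadjusted p was 0.00622, the adjusted p 0.161 (limma) and the exact two-sided permutation p 0.0286. Without CTL replicate 3 the difference was 1.05 (unadjusted p = 0.00427), and without CTL replicate 1 it was 1.79 (unadjusted p = 0.000487, limma). The mm9 probe position is chromosome 3 from 95682433 to 95682492.

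The promoter of Ciart carries its E-boxes close together, and those of Cry1 and Per1 have 1 each. The 250 bases before the RefSeq start are shown for Ciart, whose groups did not overlap, for Cry1 and Per1 as the other 2 members with an E-box, and for Per3 as the member with D-boxes. Capitals mark E-boxes (CACGTG) in the first 3 and D-boxes in the last, searched as TTATGTAA and TTACGTAA on both strands.
Ciart (chr3:95882229-95882478, minus strand, GRCm38.p6): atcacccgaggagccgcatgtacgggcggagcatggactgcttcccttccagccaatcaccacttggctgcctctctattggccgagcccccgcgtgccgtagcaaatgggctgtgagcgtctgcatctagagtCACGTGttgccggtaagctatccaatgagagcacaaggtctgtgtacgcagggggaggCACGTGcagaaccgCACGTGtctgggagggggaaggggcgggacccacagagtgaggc
Cry1 (chr10:85185055-85185304, minus strand, GRCm38.p6): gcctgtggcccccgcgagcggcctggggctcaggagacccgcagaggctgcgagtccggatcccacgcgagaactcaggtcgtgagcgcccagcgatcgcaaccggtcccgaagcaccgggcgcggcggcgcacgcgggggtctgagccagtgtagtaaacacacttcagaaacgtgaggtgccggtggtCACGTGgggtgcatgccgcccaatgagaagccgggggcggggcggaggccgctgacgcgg
Per1 (chr11:69098699-69098948, plus strand, GRCm38.p6): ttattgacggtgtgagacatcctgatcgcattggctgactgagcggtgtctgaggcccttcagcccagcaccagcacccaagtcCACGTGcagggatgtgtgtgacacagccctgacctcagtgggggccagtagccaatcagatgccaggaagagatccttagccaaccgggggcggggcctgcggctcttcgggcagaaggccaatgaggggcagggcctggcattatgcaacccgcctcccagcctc
Per3 (chr4:151044666-151044915, minus strand, GRCm38.p6): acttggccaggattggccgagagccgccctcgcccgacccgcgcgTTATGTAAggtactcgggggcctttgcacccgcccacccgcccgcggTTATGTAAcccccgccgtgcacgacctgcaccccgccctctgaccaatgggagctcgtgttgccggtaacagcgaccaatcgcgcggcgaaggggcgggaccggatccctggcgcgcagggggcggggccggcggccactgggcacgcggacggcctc
The sequences are from RefSeq, which held 13 promoter windows for 9 of the 10 genes. The E-box occurred in 3 of the 13 windows and in 6.02% of all 32851 windows of the same length, and a D-box in 1 of 13 and in 0.931%. Counted from the start, the E-boxes of Ciart begin at bases -116, -58 and -44, that of Cry1 at -60 and that of Per1 at -166, and the D-boxes of Per3 begin at -205 and -158. No E-box or D-box was in the windows of Arntl, Clock, Npas2, Nr1d1 or Dbp, nor in the second window of Per1. The core of the ROR element, searched as TAGGTCA and TGGGTCA, and the cAMP response element TGACGTCA, both on both strands, were in none of the 13 and in 5.38% and 1.55% of all windows. A match describes these letters only. Sites outside these windows, after the start or with other letters were not searched for, so a motif absent here may still serve the gene. Of the 3 genes with an E-box, the groups of Ciart did not overlap and those of Cry1 and Per1 did.

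Dbp, a transcription factor of clock output, was read by 2 probes, both well above background on all 8 arrays. The brighter was at 5.56, 5.73, 5.53 and 5.81 on the TAC arrays, against 5.64, 5.15, 4.09 and 4.87 on the CTL arrays. CTL replicates 2, 3 and 4 lay below all TAC kidneys, and CTL replicate 1 lay within the TAC range. The difference was 0.72 ± 0.29 (SE), with an interval from 0.06 to 1.38, an unadjusted p of 0.0355 and an adjusted p of 0.292 (limma); the exact two-sided permutation p was 0.0857. At the further probe the levels were 5.38, 5.47, 5.45 and 5.75 in TAC kidneys, against 5.41, 5.12, 4.11 and 4.89 in CTL kidneys, a difference of 0.63 (unadjusted p = 0.0379, limma over probes). Without CTL replicate 1 the difference at the brighter probe was 0.96 (unadjusted p = 0.00495), and without CTL replicate 3 it was 0.44 (unadjusted p = 0.0477, limma). The probes lie on chromosome 7 from 52965461 to 52965520 and from 52965322 to 52965381 on mm9.

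CRY1 is the cryptochrome that holds the ARNTL and CLOCK pair in check late in the cycle. Cry1 was at -5.14, -5.05, -5.41 and -4.70 on the TAC arrays, all well above background, against -4.86, -5.73, -6.61 and -6.10 on the CTL arrays, where replicates 3 and 4 were not. CTL replicate 1 lay inside the TAC range and the other CTL kidneys below it. The difference was 0.75 ± 0.34 (SE), with an interval from -0.04 to 1.53 (unadjusted p = 0.0592, adjusted p = 0.335, limma). This size moved with how the dim probe was processed, and which step moved it was not tested. The normexp settings took the mean signal and added an offset of 50, beside processed signals of 8.14 to 36.2 for this probe. The difference was 0.165 with normexp background correction and the 75th percentile, 0.129 with normexp and quantile normalization and 0.242 in the deposited values. On the processed signal it was 0.675 with quantile and 0.695 with median normalization. Under a changed model, with the adipocyte marker mean as a covariate, it was 0.313. Without CTL replicate 1 it was 1.07 (unadjusted p = 0.00255, limma), where 2 of the 3 CTL arrays kept were not well above background. Without CTL replicate 3 it was 0.486 (unadjusted p = 0.148, limma).

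The Period genes encode the partners of the cryptochromes in repression. Per2 was at -0.66, -0.39, -1.03 and -0.84 on the TAC arrays and at -0.46, -1.20, -1.37 and -1.55 on the CTL arrays. Apart from CTL replicate 1, which lay inside the TAC range, the CTL kidneys were lower, and the difference was 0.42, with an interval from -0.14 to 0.97. With single arrays left out the difference ran from 0.279 to 0.643, and 1 of 8 fits passed an unadjusted p under 0.05 (limma). That was the fit without CTL replicate 1 (0.643, unadjusted p = 0.00642), the array that lay closest to the TAC kidneys. The highest unadjusted p of the 8 fits was 0.294 (limma). Per3 was at -2.44, -2.47, -2.25 and -2.13 on the TAC arrays and at -2.24, -2.38, -2.98 and -2.62 on the CTL arrays. Here CTL replicates 3 and 4 were below the TAC kidneys and the other CTL kidneys among them, a difference of 0.23 with an interval from -0.15 to 0.62. Without CTL replicate 3 it was 0.0903.

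Per1, which also answers acutely to hormones and cAMP, had 2 probes. The brighter was at 1.81, 2.05, 2.47 and 2.36 on the TAC arrays and at 1.81, 1.46, 2.50 and 1.91 on the CTL arrays, so that both groups covered a similar range. Its difference was 0.25, with an interval from -0.28 to 0.78, and with single arrays left out it ran from 0.0970 without CTL replicate 2 to 0.444 without CTL replicate 3. The further probe, matched to a cDNA clone, was well above background on 1 of 4 arrays in each group and was not tested. It read -5.95, -6.43, -6.37 and -5.94 on the TAC arrays and -5.46, -5.93, -5.83 and -5.90 on the CTL arrays, lower on every TAC array but at values mostly not well above background.

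Nr1d1, known as Rev-erb alpha, encodes the nuclear receptor that represses Arntl. It was at -0.25, -0.28, 0.01 and -0.01 on the TAC arrays and at -0.16, -0.33, -0.03 and 0.20 on the CTL arrays. The groups overlapped and the difference was -0.05 ± 0.13 (SE). Its interval, from -0.36 to 0.25, corresponds to a TAC level between 0.780 and 1.19 times that of CTL kidneys.

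The CTL arrays also differed among themselves. CTL replicate 3 had the lowest level of all 8 arrays for Dbp, Ciart, Cry1 and Per3 and the highest for Arntl. CTL replicate 1 had the highest CTL level of Dbp, Ciart, Cry1, Per3 and Per2 and the lowest CTL level of Arntl. On CTL replicate 1, 7 of the 10 genes lay within the range of the TAC arrays, against 3 on each of the other CTL arrays. Over all genes tested the same share was 54.1% on CTL replicate 1 and 48.6% to 65.0% on the others. The SD was larger in CTL than in TAC kidneys for 8 of the 10 genes, as it was for 39.5% of all genes. For Ciart it was 4.90 times and for Dbp 4.87 times as large, and a ratio over 3 was seen in 2 of the 10 genes and in 3.86% of all genes. These spreads are descriptions and were not tested. Npas2 and Clock were the exceptions, with TAC SDs of 0.90 and 0.25 against CTL SDs of 0.27 and 0.17, and TAC replicate 4 highest in both.

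**Figure D2:**
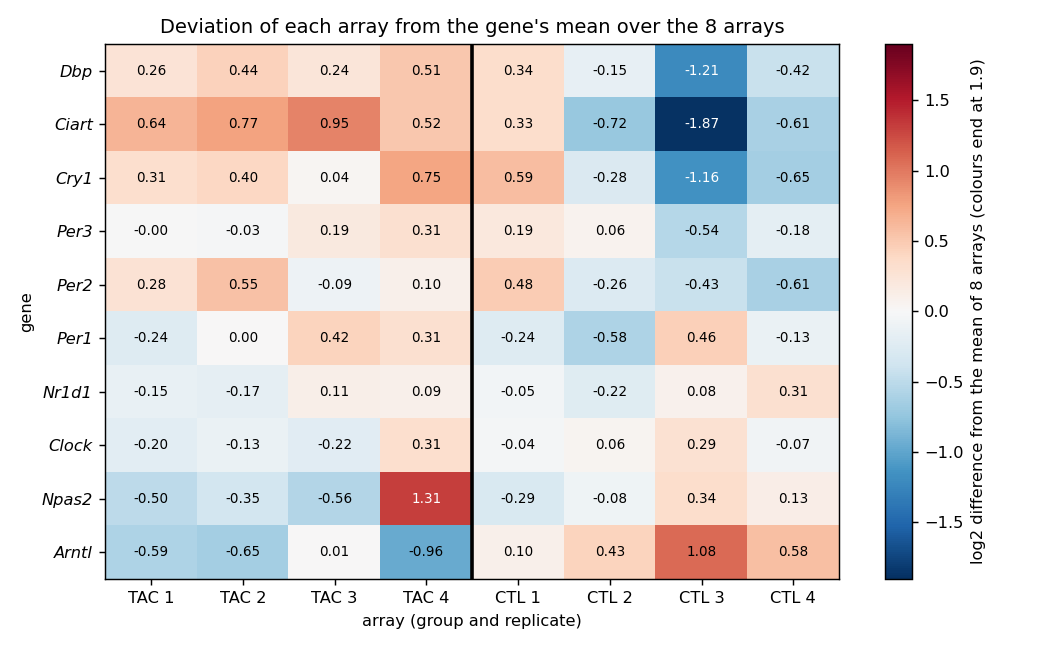
Deviation of each array from the mean of the gene over the 8 arrays, in log2 units, with the TAC kidneys left of the black line and the CTL kidneys right of it. Dbp, Ciart and Cry1 are above their mean on all TAC arrays and on CTL 1 and below it on CTL 2, 3 and 4, and Arntl is most above its mean on CTL 3.

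Across the 8 arrays levels of 4 of the other genes ran with that of Dbp. The likeness to Dbp, as Pearson's r over 8 arrays, was 0.96 for Cry1, 0.94 for Ciart, 0.90 for Per3 and 0.77 for Per2. Among the 25123 other genes tested these took places 3, 23, 94 and 827. By rank (Spearman's rho) the likeness was 0.98 for Cry1, 0.62 for Ciart, 0.69 for Per3 and 0.83 for Per2. CTL replicate 3 was the lowest array for Dbp, Cry1, Ciart and Per3, and its weight in these values was not tested. On CTL replicates 3 and 4 Cry1 was not well above background. Arntl was at the far end with an r of -0.89, in place 24995. Per1, Nr1d1, Npas2 and Clock had likenesses between -0.42 and -0.12. The genes outside the clock most like Dbp were Pfkfb1, a bifunctional enzyme of glycolytic control, Il2ra, a chain of the interleukin 2 receptor, Bcl2l14, the mitotic gene Ska3 and the chromatin protein gene Hmgb2, with r from 0.96 to 0.98. Those most like Arntl were Smg5, a factor of nonsense-mediated decay, the cation channel gene Trpv4, Lyrm4, a factor of iron-sulfur cluster assembly, Pdp2, a pyruvate dehydrogenase phosphatase, and the polarity gene Llgl2, with r from 0.97 to 0.99. These values take in both the difference between the groups and the spread within them, all genes share the same 8 arrays and their scaling, and within a group of 4 the relation was not tested.

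Further genes of the clock differed less than Arntl and Ciart. Of 22 listed genes, 21 were tested, and Bhlhe41 did not pass the filter. None was called (limma), 2 of 21 passed the unadjusted level as higher and none as lower, where 7.04% and 8.42% of all genes did, and the median difference was 0.07. Csnk1e, encoding a kinase that phosphorylates PER proteins, differed by 0.38 ± 0.12 (SE, unadjusted p = 0.0142, adjusted p = 0.221), and by 0.25 at a further probe. Timeless, a replication fork protein named after the fly clock gene, differed by 0.29, and by 0.28 at a further probe (unadjusted p = 0.0251 at the first, adjusted p = 0.259). Gsk3b, a kinase acting on several clock proteins, differed by -0.17 and Tef, a relative of Dbp, by 0.33, both with intervals that include 0. Further probes of Gsk3b differed by -0.21 and 0.04.

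Some close relatives of the 10 genes were named after their values were seen. Cry2, the other cryptochrome, differed by 0.36, with an interval from -0.06 to 0.78, and by 0.34 at a further probe. CTL replicates 1 and 3 were its highest and lowest CTL kidneys, at 2.67 and 1.78. Nr1d2, the relative of Nr1d1, differed by 0.27 with an interval from -0.05 to 0.60, and by 0.13 at a further probe. Nfil3, which opposes DBP at D-boxes, differed by -0.66 with an interval from -1.47 to 0.15, and CTL replicate 3 was its highest array at 1.52. Hlf, another relative of Dbp, differed by 0.09. Arntl2, the relative of Arntl, differed by -0.40 at its brightest probe and by -0.53 and -0.32 at further probes. At their brightest probes none of these genes passed at an unadjusted p under 0.05. The Arntl2 probe at -0.53 did (unadjusted p = 0.0433, limma over probes).

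**Figure D3:**
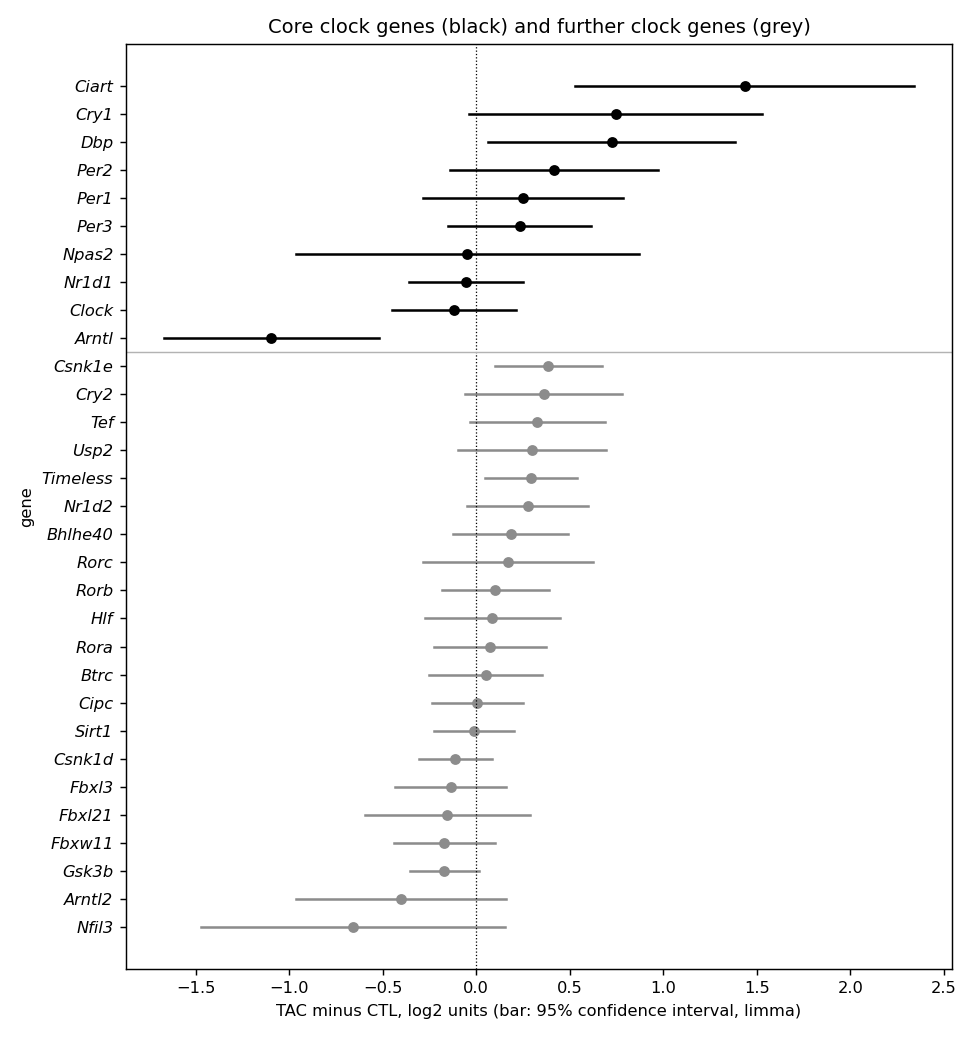
Difference between TAC and CTL kidneys in log2 units for the 10 core clock genes (black) and 21 further clock genes (grey), with 95% confidence intervals from limma. The intervals of Ciart, Dbp and Arntl leave out 0, as do those of Csnk1e and Timeless.

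Genes known to follow the clock in kidney or other tissues showed no call. Of 16 listed output genes, 2 passed the unadjusted level as higher and none as lower (limma), beside the same 7.04% and 8.42% of all genes, with a median difference of 0.14. Ppara, a nuclear receptor of fatty acid oxidation, was at 4.32, 4.51, 4.69 and 4.36 on the TAC arrays, against 4.22, 4.21, 4.24 and 3.98 on the CTL arrays. Its groups did not overlap, and it differed by 0.31 (unadjusted p = 0.0224, adjusted p = 0.252, limma), by 0.30 at a second probe and by 0.01 at another. Klf10, a zinc finger factor, differed by 0.34 (unadjusted p = 0.0330, adjusted p = 0.286). Pck1, of gluconeogenesis, differed by 0.30, and Por, the electron donor of cytochrome P450 enzymes, by -0.23, both with intervals that include 0.

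Marker lists of other cells were read on the same arrays. The mean level of 5 adipocyte markers ran from -3.17 to 0.52 on the TAC arrays and from -6.80 to -3.09 on the CTL arrays, all 5 higher at an unadjusted p under 0.05 and none called (limma). On the CTL arrays these markers were largely dim: Plin1 was well above background on 4 TAC and 0 CTL arrays, Adipoq on 4 and 1, and Cidec on 4 and 2. Plin1 passed the filter through the TAC arrays alone and so had to differ, the count of 5 supports nothing, and CTL means of the list rest in part on values near background. CTL replicate 2 was the highest CTL array in these markers, and CTL replicates 1 and 3, the 2 extremes of the clock genes, were at -6.21 and -6.69. How these means relate to the clock genes among the CTL arrays was not tested. With the mean of the 5 adipocyte markers as a covariate Arntl differed by -0.66 (unadjusted p = 0.122), Ciart by 1.496 (unadjusted p = 0.0609) and Dbp by 0.40 (unadjusted p = 0.416, limma). The TAC and CTL ranges of that mean barely overlapped, so this fit can hardly tell it apart from treatment. Its higher p-values therefore do not show what part adipocytes had in the clock values. The mean of 8 macrophage markers ran from 1.37 to 2.04 on the TAC arrays and from 0.41 to 1.05 on the CTL arrays. At an unadjusted p under 0.05, 6 of these 8 were higher and 1 was lower, beside 7.04% and 8.42% of all genes. None of them was called (limma). The mean of 7 T cell markers ran from -1.56 to -0.96 on the TAC arrays and from -2.11 to -1.23 on the CTL arrays, with CTL replicate 1 highest and CTL replicate 3 lowest of the CTL arrays. The T cell ranges overlapped, 3 of 7 markers were higher at the unadjusted level, beside the same 7.04% of all genes, and none was called (limma). The part of macrophages and T cells in the clock values was not tested.

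**Figure D4:**
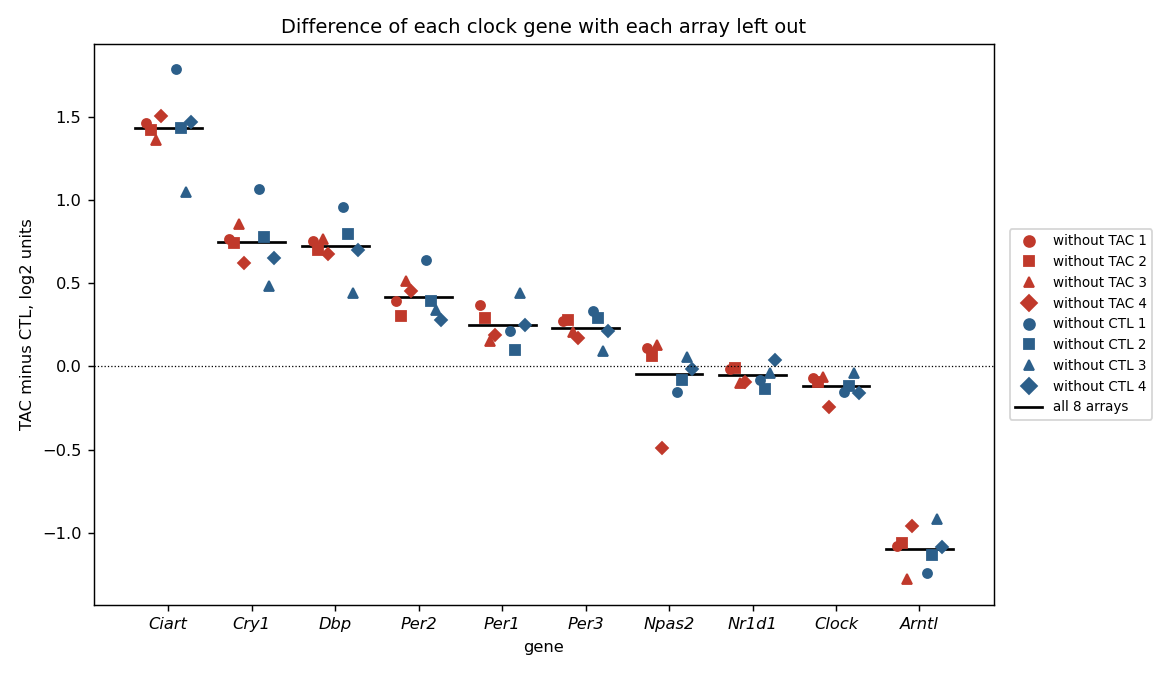
Difference between TAC and CTL kidneys in log2 units for each core clock gene with 1 array left out at a time (red: a TAC array, blue: a CTL array) and with all 8 arrays (line). Leaving out CTL 1 or CTL 3 moves Ciart, Cry1 and Dbp in opposite directions, and leaving out TAC 4 moves Npas2 to -0.49.

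Arntl, Ciart and Dbp kept their direction whichever array was left out, while the size of their differences moved. With each array left out in turn, Arntl differed by -1.28 to -0.92 and Ciart by 1.05 to 1.79, with an unadjusted p under 0.05 in all 8 fits (limma). Dbp differed by 0.44 to 0.96 and passed that level in 3 of 8 fits. Without CTL replicate 1, Arntl, Ciart, Cry1, Dbp and Per2 passed it, 5 genes in all, the last 4 of them higher, and 5 of the 10 genes had groups that did not overlap. Over all genes in that fit of 4 against 3 arrays, 12.4% passed the unadjusted level and 13.5% did not overlap. Without TAC replicate 4 the groups of 4 of the 10 did not overlap, against 14.3% of all genes. The adjusted p of every member stayed above 0.05 in these fits.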

How the data were processed

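The authors' scanner files give, per the file headers, a background-subtracted and detrended processed intensity for each spot (Feature Extraction, version 10.7.3.1). The deposited table holds log2 values. Quantile normalization of the raw median intensities, followed by log2, gave these values back to within 5e-09, uncentred and without background subtraction; column medians ran from 6.30 to 6.32. The submitters' processing notes name limma. RNA input was 0.2 ug at RIN 9 for all 8 samples, per the labels.

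The processed intensity was divided by the array's 75th percentile over 59305 non-control spots and taken to log2. Spots marked as outliers (147 to 194 per array) were dropped and spots of a probe averaged. A probe was tested if well above background on at least 4 of 8 arrays (36489 probes), and the brightest stood for its gene (25124). Symbols came from the files, updated by accession from RefSeq. TAC was set against CTL with limma (version 3.58.1, R version 4.3.3), without further terms, and genes were called at an adjusted p under 0.05. A further fit covered all probes. The fit was tested on simulated data.

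The clock genes and all lists were chosen with earlier results of these data known. Named were all 10 clock genes, up to 4 members with the lowest p in each further list, and the 5 genes most like Arntl and Dbp. Replicate numbers were not taken to pair the samples.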

Additional observations from a re-analysis of the deposited data

Results flagged for a closer look

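Of 24 sets of 4 arrays checked (12 probes in each group), 1 held an array far from the others. Npas2 read -4.37 on TAC replicate 4, and the gap to the next TAC array was 0.887 of the range of the TAC group, above Dixon's 95% critical value for 4 values. Chance flags about 5% of such sets. The adipocyte and urothelium marker means were also highest on that array, and their part was not tested.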

How the results depend on the processing

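No clock gene was called under any of the 21 alternatives (limma), and Arntl, Clock, Ciart, Cry1, Dbp, Per1 and Per2 kept their direction in every alternative that held them. Adjusted p ran from 0.0632 to 0.613 for Arntl and from 0.0753 to 0.588 for Ciart. The number of clock genes at an unadjusted p under 0.05 was 0 with the adipocyte marker mean as a covariate (8.7% of all genes). With 10 genes, a count of 0 beside that share says little about the clock. With single arrays left out the number of clock genes at that level ran from 2 to 5, beside at most 17.5% of all genes. The number with groups that did not overlap was 4 without CTL replicate 2 and TAC replicate 4 together (17.4% of all genes), and ran from 2 to 5 with single arrays left out (12.2% to 19.2% of all genes), where fewer arrays make it easier not to overlap. Npas2 turned to 0.0629 with normexp and the 75th percentile, to 0.0228 with normexp and quantile normalization and to 0.0741 in the deposited values, and ran from -0.49 to 0.13 with single arrays left out. With the adipocyte covariate Nr1d1 turned to 0.0730 and Per3 to -0.0581, and Nr1d1 ran from -0.14 to 0.0395 with single arrays left out. The cause of these turns was not tested. The count of all genes called, 57 as reported, was 286 with normexp and the 75th percentile, 132 with normexp and quantile normalization, 183 in the deposited values, 32 with no filter on dim probes, 151 with a filter on all 8 arrays, 222 with an intensity trend and robust estimation, 309 with array weights, 0 with the adipocyte covariate and 8 without CTL replicate 2 and TAC replicate 4 together. With single arrays left out it ran from 7 to 56: 7 without CTL replicate 2, 13 without CTL replicate 3 or 4, and 18, 22 and 33 without TAC replicates 1, 2 and 3. Same-numbered arrays, which shared a slide column, deviated together with correlations of 0.16, 0.02, 0.14 and 0.06. The numbers were not taken to pair the samples, although 7 of 8 arrays correlated best with their own number. Pairing and slide column cannot be told apart here. With the replicate block 103 genes were called, and 4 clock genes passed the unadjusted level, as did 17.5% of all genes. Dim signal limits Npas2, Cry1 and the further Per1 probe.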

Other observations

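Some hormones and body temperature are known to reset clocks in peripheral tissues, and genes that answer to them were looked at beside the clock. Of 14 listed glucocorticoid-responsive genes, none was called (limma), 2 were higher and none was lower at an unadjusted p under 0.05, where 7.04% and 8.42% of all genes were, and the median difference was 0.07. The 14 include the core clock gene Per1, and also Sgk1 and Tsc22d3, which were counted among the output genes too. Zbtb16, a zinc finger factor strongly induced by glucocorticoids, was at 1.28, 2.01, 1.99 and 1.18 on the TAC arrays, against -0.10, -0.80, 0.93 and 0.05 on the CTL arrays. Its groups did not overlap, and the difference was 1.59 ± 0.36 (SE, unadjusted p = 0.00204, adjusted p = 0.105, limma). Mt2, a metallothionein, differed by 0.67 (unadjusted p = 0.0144, adjusted p = 0.221). Its relative Mt1 differed by 0.32 and the cell cycle inhibitor gene Cdkn1a by -0.49, both with intervals that include 0. At a further probe Cdkn1a differed by -0.96 (unadjusted p = 0.0410, limma over probes). Fkbp5, Tsc22d3 and Klf9, widely used readouts of glucocorticoid action that were named after their values were seen, differed by 0.06, 0.05 and -0.02.

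Of 9 listed temperature-responsive genes 8 were tested, none was called (limma), and 1 was higher at an unadjusted p under 0.05, beside those shares. Hspb1, a small heat shock protein, was at 4.25, 4.73, 3.85 and 4.16 on the TAC arrays, against 3.39, 3.25, 3.87 and 3.37 on the CTL arrays. It differed by 0.78 ± 0.21 (SE, unadjusted p = 0.00503, adjusted p = 0.148), with CTL replicate 3 the only CTL kidney inside the TAC range. Rbm3, an RNA-binding protein induced by cold, differed by 0.33 at its brightest probe, by 0.54 at a second and by -0.23 at another. The heat shock genes Hsph1 and Hsp90aa1 differed by -0.33 and -0.23, with intervals that include 0.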
